A study of Danio rerio with 2 samples.

Results

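Barcodes that carried the somite genes *meox1* and *tcf15*, without signal of segmenting presomitic mesoderm or of muscle, were described in 2 single-cell RNA-seq libraries of zebrafish tailbuds. A barcode tags the contents of 1 droplet, normally 1 cell, and a unique molecular identifier (UMI) tags 1 captured transcript, so that UMIs count molecules. Members were chosen from barcodes with at least 5000 UMIs and at most 15% mitochondrial UMIs. They had at least 4 UMIs of *meox1* and *tcf15* together, 0 UMIs of *mespaa*, *mespab*, *mespba*, *mespbb* and *msgn1*, and at most 1 UMI of *acta1a*, *ttn.2* and *myog* together. This gave 384 members in the *stag2b* mutant library and 344 in the wild-type library, 728 of the 40999 barcodes within both limits.

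Both libraries came from pooled tailbuds, the posterior end of the embryo, dissected at the 16-somite stage (16 hpf). The mutant embryos were homozygous for the nz207 allele of *stag2b*, which encodes a Stag subunit of the cohesin ring. The wild-type sample is labelled AB whereas the methods name the WIK strain, and labels and methods also differ in the version of the droplet kit. With 1 library per genotype no p-value was computed, genotype, pool and library cannot be told apart, and all intervals are 95% intervals that cover counting error only.

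Somites are blocks of mesoderm that bud off in pairs from the presomitic mesoderm. Ripply proteins end the activity of Tbx6 and of the Mesp factors where a boundary forms, and the new block becomes epithelial, a step that requires Tcf15 in mouse. It is then patterned into an anterior and a posterior compartment and yields muscle, dermis and skeleton, with Myf5 and Myod1 starting the muscle programme.

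The libraries held 393322847 UMIs over 26360 mutant barcodes and 303216340 UMIs over 18704 wild-type barcodes, of which 23889 and 17110 were within the limits. Members had a median of 14500.5 UMIs in the mutant and 17318 in wild type, close to the 14581 and 16674.5 of all barcodes within the limits, and medians of 1.73% and 2.52% mitochondrial UMIs. Scrublet, a doublet caller, marked 27 mutant and 12 wild-type members. The libraries shared 125 barcode sequences, 2 of which belonged to members, and no barcode was a member in both.

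Most members held few UMIs of the genes that chose them. The sum of *meox1* and *tcf15* had a median of 6 in mutant and 6 in wild-type members, with maxima of 95 and 153. At the threshold of 4 stood 111 mutant and 110 wild-type members, and 220 and 224 barcodes with 3 UMIs stood just outside. *tcf15*, a bHLH factor of the somite epithelium, was at 0 UMIs in 16 mutant and 24 wild-type members, while *meox1*, a somite homeobox gene, was at 0 UMIs in 133 mutant members (34.6%) and 169 wild-type members (49.1%). At the other thresholds, 79 mutant and 62 wild-type members held 1 muscle UMI, while 34 and 29 barcodes with 2 were left out. Likewise 99 mutant and 82 wild-type barcodes missed membership by 1 *mesp* UMI, and 136 and 115 by 1 *msgn1* UMI.

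**Figure D1:**
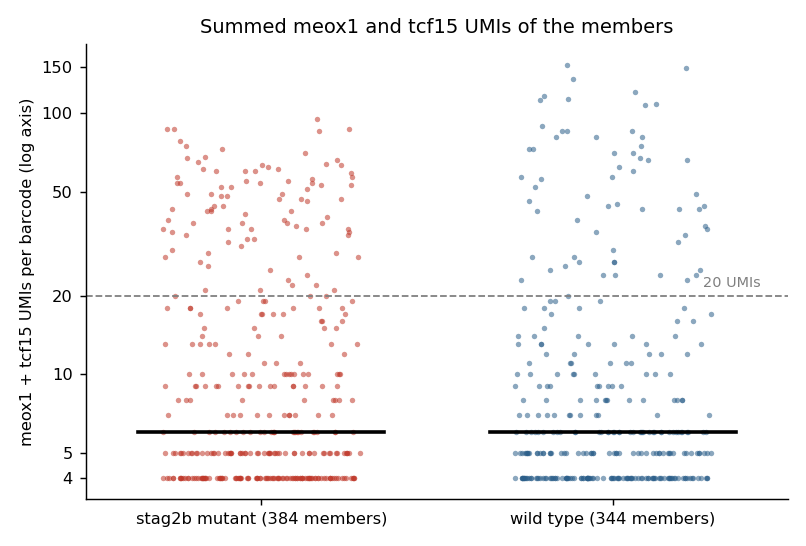
Summed *meox1* and *tcf15* UMIs (log axis) of each of the 384 *stag2b* mutant and 344 wild-type members, 1 point per barcode, with black bars at the medians and a dashed line at 20 UMIs. Both medians lie at 6, and 94 mutant and 62 wild-type members reach 20 UMIs.

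The exclusions removed most barcodes with somite signal. At least 4 UMIs of *meox1* and *tcf15* were present in 10740 mutant and 6582 wild-type barcodes, 45.0% and 38.5% of those within the limits. Without *mesp* UMIs 3701 and 2183 remained, without *msgn1* as well 947 and 504, and with at most 1 muscle UMI the 384 and 344 members. Epidermal barcodes, which should lack both genes, were taken as a comparison. Of 2596 mutant and 1975 wild-type barcodes with at least 20 UMIs of *epcam*, *krt4* and *krt5*, 18.0% and 13.7% held 4 or more UMIs of the somite pair. Their median depths were 20512.5 and 21365 UMIs. The pair had a median of 0 UMIs in this set in both libraries, with maxima of 109 and 148. Free RNA and barcodes with more than 1 cell were not told apart in it.

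The name of formed somite cells was not borne out for most members. Ranked over all other barcodes within the limits, the genes highest in members were *etv2*, *pax6a*, *her3*, *olig4*, *ncam1b* and *lmo2*. *etv2* and *lmo2* mark endothelial and blood precursors, and *pax6a*, *her3* and *olig4* mark the neural tube. *etv2* averaged 217 CPM (a gene's UMIs over all UMIs of the set, scaled to 1000000) in mutant members against 47.6 CPM in other mutant barcodes, and 336 CPM in wild-type members against 73.5 CPM in the others. *chrd*, a Bmp antagonist of the axial midline, was also among the leading 20 genes, with 231 and 292 CPM in mutant and wild-type members. No gene of the formed somite marker list was among these 20. Of the 9 listed somite markers that the rule did not use, 5 were higher in members than in other barcodes in both libraries, namely *aldh1a2*, *six1b*, *uncx4.1*, *pax3a* and *ripply1*.

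Counts of markers per barcode gave the same division. After thinning each barcode to 5000 UMIs, at least 5 UMIs of the 9 somite markers were present in 31.8% of mutant and 25.6% of wild-type members, against 7.70% and 6.13% of epidermal barcodes. Without thinning these shares were 55.7% and 46.2% of members and 26.0% and 17.5% of epidermal barcodes. After thinning, the 15 listed neural progenitor genes reached 5 UMIs in more members than somite genes did, in 46.4% of mutant and 45.6% of wild-type members. Without thinning their shares were 54.9% and 56.4%, above the somite share in wild type only. Epidermal barcodes reached 5 UMIs of neural genes in 4.04% and 3.75% of cases after thinning and 21.7% and 17.2% without. Notochord genes reached 5 UMIs in 9.38% and 13.7% of members and endothelial genes in 7.03% and 9.88%, after thinning.

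Members with many *meox1* and *tcf15* UMIs did carry the somite profile. A division at 20 UMIs, set after the values had been seen and used here only to describe, placed 94 mutant and 62 wild-type members above it. Of these, 85 (90.4%) and 57 (91.9%) held 5 or more UMIs of the other somite markers after thinning, against 12.8% and 11.0% of the 290 mutant and 282 wild-type members with 4 to 19 UMIs. In *mesp* cells, the segmenting cells just before the boundary (at least 4 *mesp* UMIs and at most 1 muscle UMI, 2164 mutant and 1648 wild-type barcodes), 76.5% and 82.0% held as many, so that most segmenting cells carried this list as well. Neural genes showed the reverse, at 4.26% and 6.45% of members with 20 or more UMIs and 60.0% and 54.3% of those with fewer. Endothelial genes reached 5 UMIs in 0 of 94 mutant and 0 of 62 wild-type members above the division, which allows shares of up to 3.85% and 5.78% by exact binomial intervals. Members with 20 or more summed UMIs are called *meox1*-high here, and those with fewer *meox1*-low.

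Across the range of summed UMIs the somite list was flat up to 9 UMIs and higher in each bin above, while other lineages were lower from different points on. In members with exactly 4 UMIs, the 9 somite markers together reached 265 CPM in the mutant and 236 CPM in wild type, and in members with 30 or more they reached 3351 and 3330 CPM. Neural genes stood at 1667 and 1758 CPM at the low end and at 140 and 180 CPM at the high end. Endothelial genes were highest at intermediate sums, with 2355 CPM in mutant and 2806 CPM in wild-type members of 15 to 19 UMIs, and dropped to 6.46 and 14.7 CPM in those with 20 to 29. The epidermal list reached 5397 CPM in wild-type members of 20 to 29 UMIs, most of it in 1 barcode that held 204 of the 269 *krt4* UMIs of *meox1*-high wild-type members.

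**Figure D2:**
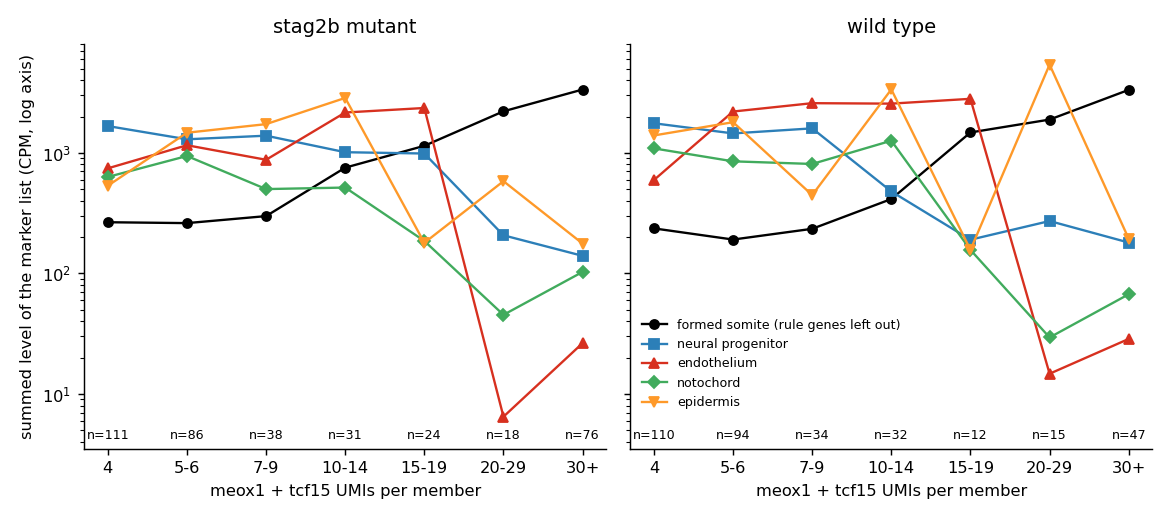
Summed level (CPM, log axis) of 5 marker lists in members grouped by *meox1* plus *tcf15* UMIs, *stag2b* mutant left and wild type right, with the number of members in each bin. Somite markers that the rule did not use climb to 3351 and 3330 CPM at 30 or more UMIs, while endothelial genes fall to 6.46 and 14.7 CPM at 20 to 29.

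The share of members depended on the rule. Members made up 1.61% (1.45 to 1.78%) of mutant and 2.01% (1.81 to 2.23%) of wild-type barcodes within the limits, and these intervals did not overlap. The *meox1*-high members made up 0.393% (0.318 to 0.481%) of mutant and 0.362% (0.278 to 0.464%) of wild-type barcodes, intervals that overlapped. These shares depended on the limit for muscle UMIs. Before it was applied, 569 of 23889 mutant and 181 of 17110 wild-type barcodes had at least 20 UMIs and no *mesp* or *msgn1* UMI. The order of the genotypes was also turned where each gene had to have at least 1 UMI. The shares were then 0.984% (0.862 to 1.12%) in mutant and 0.883% (0.748 to 1.03%) in wild type. It was turned as well on barcodes thinned to 5000 UMIs, where the minimum for the summed pair was set below 4. There the *mesp*, *msgn1* and muscle limits were also applied to the thinned counts, which makes them looser. The shares there were 4.0% (3.76 to 4.26%) in mutant and 3.72% (3.44 to 4.01%) in wild type. The intervals of the genotypes overlapped under each rule that turned the order. Wild type had the larger share under all other rules tried, so neither genotype had it under every rule. With at least 8000 UMIs per barcode the shares were 1.54% (1.38 to 1.72%) in mutant and 2.08% (1.85 to 2.33%) in wild type. The intervals also lay apart with at least 3 UMIs of the pair, with 0 muscle UMIs and with a stricter mitochondrial limit. They overlapped with at least 6 UMIs of the pair, without Scrublet calls, without epidermal barcodes and within a middle range of depth.

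The genes that set *meox1*-high members apart from all other barcodes in both libraries were led by somite genes. *aldh1a2*, which makes retinoic acid in somites, stood at 237 CPM (211 to 265) in mutant and 291 CPM (258 to 328) in wild-type *meox1*-high members, against 35.9 and 31.4 CPM in the other barcodes of each library. *six1b*, a homeobox gene of muscle precursors, stood at 54.1 CPM (42.2 to 68.4) and 74.3 CPM (57.9 to 93.9), against 8.23 and 4.81 CPM. *twist1a*, a bHLH gene expressed in sclerotome, the skeletal part of the somite, stood at 74.2 CPM (60.1 to 90.6) and 79.6 CPM (62.6 to 99.8), against 11.5 and 8.24 CPM. These genes were also above their level in *mesp* cells. The log2 ratio of *meox1*-high members over *mesp* cells was 2.53 (2.35 to 2.71) in the mutant and 2.14 (1.96 to 2.32) in wild type for *aldh1a2*. It was 3.8 and 4.64 for *six1b*, and 3.7 and 3.2 for *twist1a*.

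The 20 genes that led this ranking also held genes of signalling and of the matrix. *nr2f5*, of the COUP-TF family, stood at 493 CPM in mutant and 341 CPM in wild-type *meox1*-high members, against 117 and 54.2 CPM in the other barcodes. *fgfrl1a*, an Fgf receptor-like gene, stood at 456 and 485 CPM against 119 and 107 CPM, and *meis1a*, a homeobox gene, at 158.5 and 177 CPM against 36.6 and 22.8 CPM. *kazald2* stood at 374 and 414 CPM against 57.4 and 36.0 CPM, and *thbs4b*, a thrombospondin of the matrix, at 93.6 and 87.1 CPM against 20.04 and 11.0 CPM. Between genotypes, *nr2f5* had a log2 ratio of 0.53 (0.34 to 0.73) in *meox1*-high members, short of a call, and 1.11 in the other barcodes. The other 4 had ratios between -0.16 and 0.10 and were not called. *tgfbi*, a matrix gene, was called lower in the mutant at 62.6 and 104 CPM, and *rprmb*, a reprimo gene, at 71.9 and 166 CPM.

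In *meox1*-high members *tbx6* was lower than in *mesp* cells and *myod1* lower than in muscle cells, whereas *ripply1* and *myf5* were not. *tbx6*, the T-box factor of the presomitic mesoderm, stood at 353 CPM in mutant and 248 CPM in wild-type *meox1*-high members, against 711 and 599 CPM in *mesp* cells. *ripply1*, which represses *tbx6* and *mesp* activity, was instead highest in *meox1*-high members, with log2 ratios over *mesp* cells of 1.75 in the mutant and 1.54 in wild type. *myod1* stood at 200 and 330 CPM against 1096 and 918 CPM in muscle cells, taken here as barcodes with at least 20 UMIs of *acta1a*, *ttn.2* and *myog* (126 mutant and 26 wild-type barcodes, a cut set after the values had been seen). *myf5*, the other early muscle regulator, stood at 530 and 957 CPM, above the 260 and 558 CPM of muscle cells and near the 525 and 862 CPM of *mesp* cells. The sets were themselves chosen by *mesp* and muscle UMIs, low in members and high in the cells compared. Only the *meox1*-high members had a minimum of 20 *meox1* and *tcf15* UMIs. Lower *tbx6* and *myod1* may thus be partly built in, and the part of this choice was not tested.

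**Figure D3:**
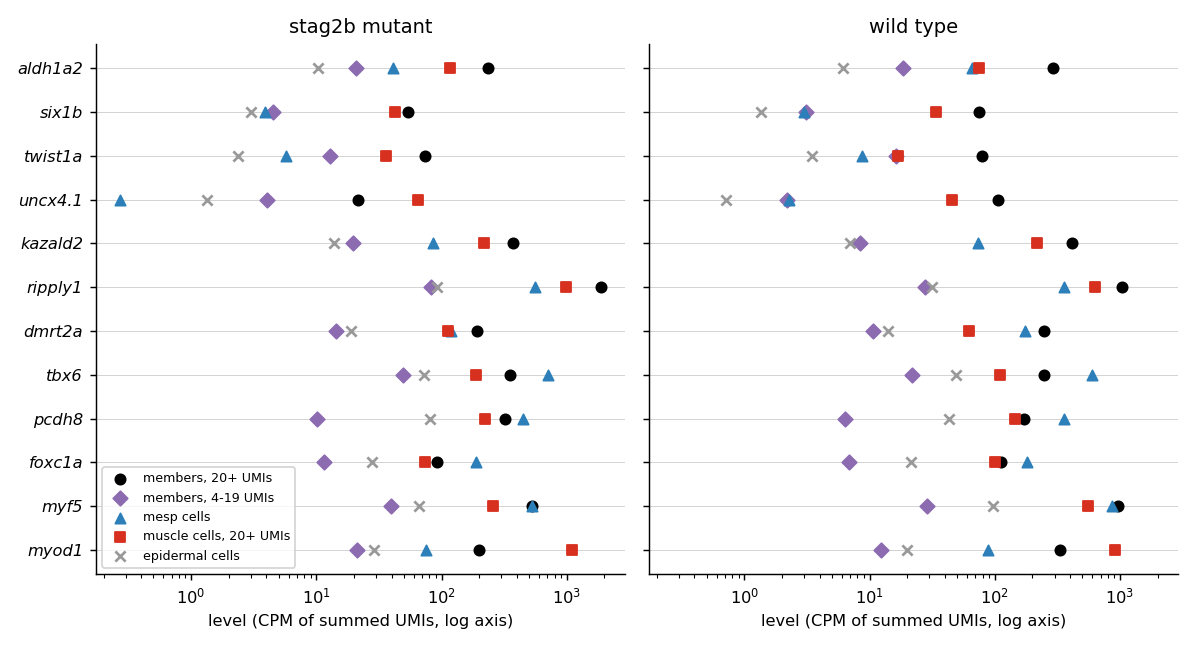
Level (CPM of summed UMIs, log axis) of 12 somite, segmentation and muscle genes in *meox1*-high members (20 or more UMIs), *meox1*-low members (4 to 19 UMIs), *mesp* cells, muscle cells and epidermal cells, *stag2b* mutant left and wild type right. *aldh1a2*, *six1b* and *twist1a* are above their *mesp* cell levels in *meox1*-high members of both libraries. For *ripply1*, *meox1*-low members lie near epidermal cells, at 82.5 against 91.2 CPM in the mutant and 27.6 against 31.4 CPM in wild type. Shares of barcodes with a UMI after thinning (not drawn) differed by gene. In the mutant, *ripply1* was found in 20% of *meox1*-low members and 12.5% of epidermal barcodes, *aldh1a2* in 10.3% and 2.73%, and *pcdh8* in 6.9% and 14.3%.

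Among themselves, members differed in part along this same division. The first principal component of members thinned to 5000 UMIs held 3.99% of the variance in the mutant and 4.36% in wild type. Across barcodes of 1 library each, its Pearson correlation with the sum of *meox1* and *tcf15* was 0.47 over 384 mutant members and 0.35 over 344 wild-type members. That of the second component was -0.58 in the mutant and -0.18 in wild type. Of the 20 leading genes at the somite end of the first component, 13 were shared by the libraries. Among them were *meox1*, *tcf15*, *ripply1*, *myf5*, *tbx6* and *aldh1a2*. At the other end 14 of 20 were shared, among them *her12*, *her15.1* and *her4.2*, hairy-related targets of Notch signalling, and *cdx4*, a posterior homeobox gene. The mitochondrial genes *mt-co1*, *mt-co2* and *mt-cyb* were shared there as well. In wild type that end also held *mt-atp6*, *mt-nd1*, *mt-co3*, *mt-nd2* and *fosab*. Genes other than somite genes stood at the somite end too, with *npm1a* in both libraries and *pno1*, *ddx21* and *gtpbp4* in wild type. On the second component the neural genes *sox3* and *sox19a* were among the 20 leading genes at 1 end, where 15 of 20 were shared. At its opposite end 4 of 20 were shared. Some *meox1*-low members lay with the *meox1*-high ones, since 56 of 290 in the mutant and 50 of 282 in wild type were above the *meox1*-high median on the first component. Since the members were chosen by *meox1* and *tcf15*, the place of these 2 genes on the component is no separate observation. Both genes also entered the components, so the correlations with their sum are partly built in.

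Between genotypes, genes were called higher or lower where their CPM ratio, relative to the median gene, was at least 1.5-fold, counting only genes that reached 50 CPM in 1 of the libraries or both. *stag2b* itself stood at 59.9 CPM in mutant and 105 CPM in wild-type members, a log2 ratio of -0.81 (-1.0 to -0.62). In all other barcodes it was -0.82. The counts do not show the mutated site, so they check the labels only through this level. Over all members 138 of 3003 genes were higher in the mutant library (4.6%) and 187 lower (6.23%). With median-of-ratios scaling, which shifts log2 ratios by 0.11, the split was 103 higher and 238 lower of 2981 genes. In *meox1*-high members 275 of 2746 genes were higher (10%) and 218 lower (7.94%), and leaving out each gene's top barcode kept 229 and 180 of these calls.

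Most of what differed over all members also differed in the rest of the tailbud. All 138 genes higher in mutant members had a ratio above 0 in the other barcodes of the same libraries. Of 124 that were tested in both, 77 were called higher there too, 62.1% of the members' calls and 77.0% of the 100 calls of the other barcodes. Of 149 lower genes tested in both, 96 were shared, 64.4% of the members' calls and 75% of the 128 calls of the others. The largest ratios were of this kind. *csrp1b*, a LIM domain gene, stood at 84.4 CPM in mutant and 3.26 CPM in wild-type members, and at 84.3 and 5.37 CPM in the other barcodes. *pdlim3a*, a PDZ and LIM domain gene, stood at 51.7 and 4.19 CPM in members. *znfl1k*, *s100a1* and *fthl31*, a ferritin gene whose symbol covers 2 annotated genes, followed with log2 ratios of 3.54, 3.36 and 3.19 in members and of 2.86, 3.16 and 2.8 in the others. In *meox1*-high members *csrp1b* gave 121 UMIs in 63 mutant barcodes and 0 UMIs in wild type, so that its ratio there has a lower bound only. *gpx4a*, a glutathione peroxidase, was on the lower side, with 5.87 and 80.6 CPM in members and 8.25 and 82.9 CPM in the others, and so was *bzw1b*, with 73.5 and 414 CPM in members. The lowest ratio of all was that of *CABZ01079276.1*, with 0.336 CPM in mutant and 75.3 CPM in wild-type members. Strain and genotype cannot be told apart in such ratios.

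**Figure D4:**
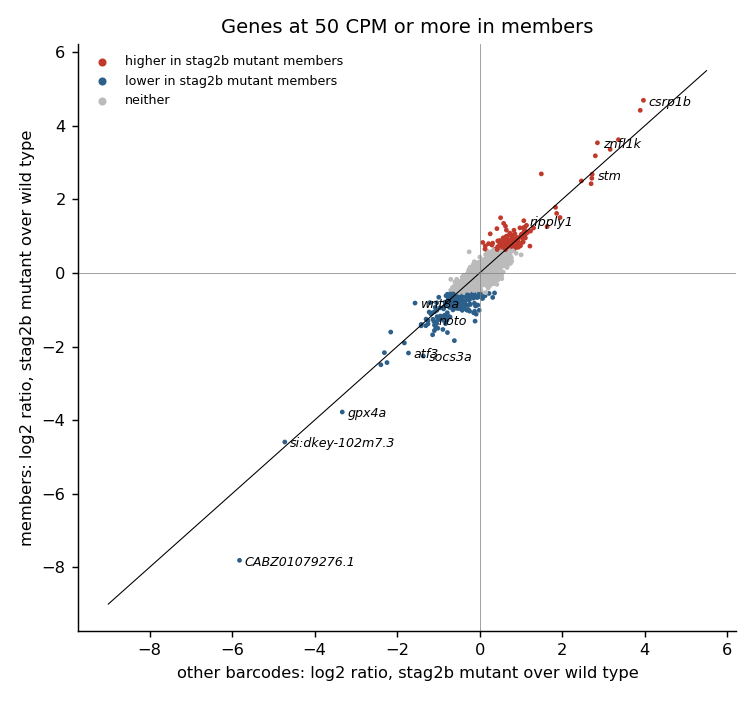
Log2 ratio of CPM, *stag2b* mutant over wild type, in members (y axis) against all other barcodes within the limits (x axis), 1 point per gene with at least 50 CPM in members, with the line of equal ratios. Called genes lie along the line, from *CABZ01079276.1* at -7.81 in members and -5.82 in the others to *csrp1b* at 4.69 and 3.97.

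Some genes of the segment boundary and presomitic mesoderm were higher in mutant members and others lower. *ripply1* stood at 1882 CPM in mutant and 1047 CPM in wild-type *meox1*-high members, a log2 ratio of 0.85 (0.74 to 0.95), and its UMIs were spread over 90 of 94 and 56 of 62 barcodes. It was higher in *meox1*-low members (1.58) and in the other barcodes (1.07) as well. *pcdh8*, the paraxial protocadherin, stood at 321 and 171 CPM in *meox1*-high members (0.91, 0.64 to 1.18) and had a ratio of 0.58 in the others. *snai1b*, a Snail repressor, stood at 85.8 and 42.5 CPM (1.01, 0.48 to 1.57), with 1.24 in the others. *tbx6* was called over all members, at 115 and 55.1 CPM (1.06, 0.88 to 1.25), and in *meox1*-high members its ratio of 0.51 (0.28 to 0.74) was short of a call. In *mesp* cells the ratios were 0.63 for *ripply1*, 0.33 for *pcdh8*, 0.55 for *snai1b* and 0.25 for *tbx6*. Of 7 presomitic mesoderm genes tested over all members, *pcdh8* was higher and *wnt8a* and *vox* were lower. The median log2 ratio of the 7 was -0.39 beside 0.05 for all genes tested, of which 4.6% were called higher and 6.23% lower. *wnt8a*, a Wnt ligand gene, stood at 29.7 CPM in mutant and 52.3 CPM in wild-type members (-0.82, -1.09 to -0.55), and *vox*, a ventral homeobox repressor gene, at 27.7 and 78.4 CPM (-1.50, -1.76 to -1.25). In *meox1*-low members *fgf8a*, an Fgf ligand gene, was lower as well, 3 of 6 with none higher. Of all 3045 genes tested in *meox1*-low members, 200 were called lower and 122 higher. In *meox1*-high members 2 of 5 were higher (*pcdh8* and *snai1b*) and none lower, beside 10% called higher and 7.94% lower of all genes tested.

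*uncx4.1*, a homeobox gene of the posterior compartment, had the lowest ratio of the listed somite factors in *meox1*-high members. Of 7 listed genes of the anterior and posterior compartments tested there, *dld* and *efnb2b* were higher, *uncx4.1* was lower and 4 were not called. The median log2 ratio of the 7 was -0.0006, beside 0.06 for all genes tested, of which 10% were called higher and 7.94% lower. *uncx4.1* gave 28 UMIs in 94 mutant and 100 UMIs in 62 wild-type members, which is 21.6 CPM (14.4 to 31.3) against 106 CPM (86.4 to 129). The log2 ratio of mutant over wild type was -2.29 (-2.95 to -1.68), and it was -2.17 without the top barcode of each library. At least 1 UMI was found in 17.0% of mutant and 48.4% of wild-type *meox1*-high members, and in 11.7% and 24.2% after thinning. The share in epidermal barcodes after thinning was 0.308% in the mutant and 0.304% in wild type. Median depths of the *meox1*-high members were 13587 and 15949 UMIs. It was also lower in mutant *mesp* cells, where 10 UMIs were counted in the mutant and 76 in wild type (0.27 and 2.29 CPM). There 0.185% (0.0504 to 0.473%) of mutant and 1.09% (0.649 to 1.72%) of wild-type barcodes held a UMI after thinning, and the mutant share was no higher than that of epidermal barcodes. In muscle cells *uncx4.1* stood at 64.3 CPM in mutant and 45.2 CPM in wild type, and its ratio over all other barcodes together was 0.24 (0.12 to 0.35). The difference between these sets was not tested.

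In the retinoic acid pathway, 2 of 7 genes tested in *meox1*-high members were lower and none was higher. *rdh10a*, the retinol dehydrogenase before *aldh1a2* in retinoic acid synthesis, stood at 164 CPM in mutant and 332 CPM in wild-type *meox1*-high members (-1.02, -1.28 to -0.76), with a ratio of -0.89 in *mesp* cells and 0.03 in all other barcodes together. After thinning, 14.7% (13.2 to 16.3%) of mutant and 22.0% (20.05 to 24.1%) of wild-type *mesp* cells held an *rdh10a* UMI. *aldh1a2* itself was not called (-0.30, -0.54 to -0.06). The second lower gene was the receptor gene *rxraa*. The median of the 7 was -0.30, beside 0.06 for all genes tested, and 7.94% of those were called lower.

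Both early muscle regulators were lower in mutant *meox1*-high members, a set that the rule had limited by muscle UMIs. Of barcodes with at least 20 *meox1* and *tcf15* UMIs and no *mesp* or *msgn1* UMI, this limit kept 94 of 569 in the mutant. In wild type it kept 62 of 181. The part of this unequal cut in the ratios of muscle genes and of other genes in *meox1*-high members was not tested. *myf5* had a log2 ratio of -0.85 (-1.0 to -0.71) there and -0.70 in the other barcodes. *myod1* had -0.72 (-0.97 to -0.48) there and 0.15 (0.13 to 0.17) in the others, with -0.23 in *mesp* cells. These were 2 of 5 myogenic regulators tested in *meox1*-high members, with none higher. Of 5 early muscle structure genes tested there, only *actc1a* was called lower and none higher. Of all genes tested there, 10% were called higher and 7.94% lower. *ttn.1*, a titin gene, stood at 439 and 330 CPM, *unc45b*, a myosin chaperone gene, at 334 and 323 CPM, and *hsp90aa1.1*, its partner in myosin folding, at 819 and 548 CPM. None of these 3 was called higher in *meox1*-high members, whereas *actc1a*, an actin gene whose symbol covers 2 annotated genes, was called lower at 82.7 and 139 CPM. Over all members *ttn.1*, *unc45b* and *hsp90aa1.1* were called higher, at log2 ratios of 1.08, 0.73 and 1.27, and the split of members above and below 20 UMIs differed between the libraries (24.5% of mutant and 18.0% of wild-type members above).

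**Figure D5:**
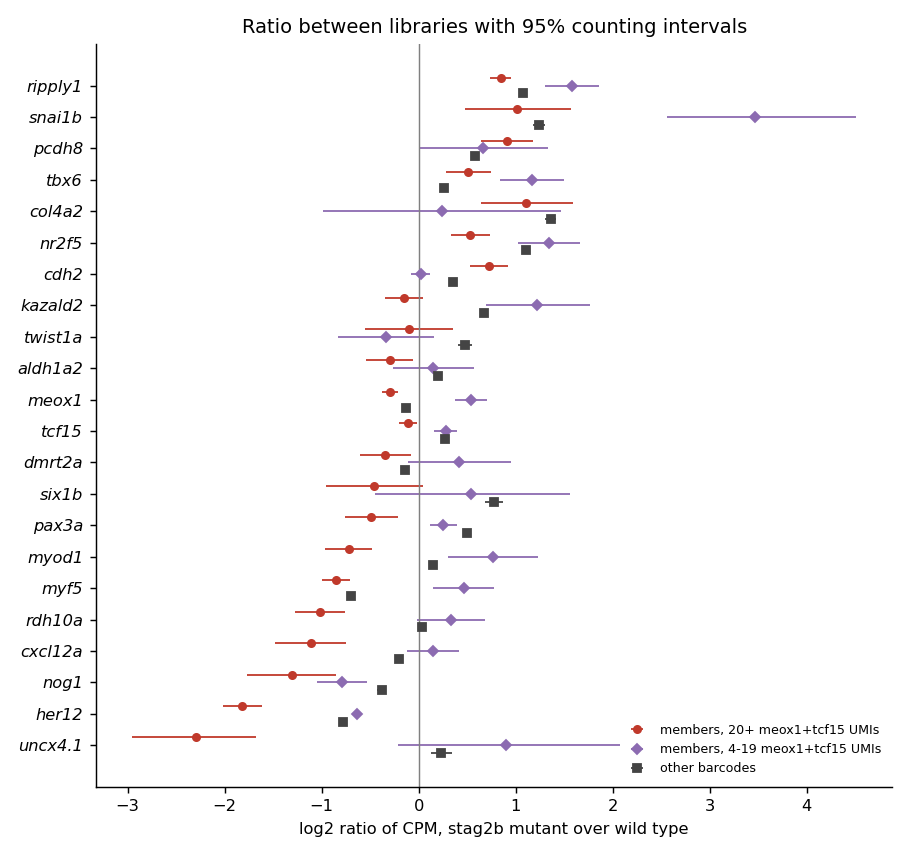
Log2 ratio of CPM, *stag2b* mutant over wild type, of 22 genes in *meox1*-high members (20 or more UMIs), *meox1*-low members (4 to 19 UMIs) and all other barcodes, with 95% counting intervals. *uncx4.1* (-2.29) and *rdh10a* (-1.02) were lower in *meox1*-high members and had ratios of 0.24 and 0.03 in all other barcodes together, although both were lower in the *mesp* cells among them (-3.08 and -0.89), whereas *ripply1* was higher in all 3 sets.

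The remaining somite factors gave few calls. Of 18 tested in *meox1*-high members, *ripply1* was higher and *uncx4.1*, *zic2b*, *lbx2* and *cxcl12a* were lower. The median log2 ratio of the 18 was -0.30 beside 0.06 for all genes tested, of which 10% were called higher and 7.94% lower. *lbx2* is a homeobox gene of migrating muscle precursors, and *cxcl12a* encodes a chemokine that guides migrating cells. *cxcl12a* stood at 82.0 CPM in mutant and 177 CPM in wild-type *meox1*-high members (-1.11, -1.48 to -0.75), and had -0.56 in *mesp* cells and -0.20 in all other barcodes. *kazald2*, *twist1a*, *dmrt2a* and *foxc1a* were not called, with ratios between -0.34 and -0.10. Over all members none of 12 was lower, and *tbx6* and *ripply1* were among those called higher. Of all genes tested over all members, 4.6% were called higher and 6.23% lower. Lists of later somite derivatives held few genes above 50 CPM. Of 3 dermomyotome genes tested in *meox1*-high members *lbx2* was lower, and of 4 sclerotome genes *snai1b* and *cdh11* were higher, with *twist1a* at 74.2 CPM in mutant and 79.6 CPM in wild-type members. Over all members *twist2* was the only one of 2 sclerotome genes called, at 38.6 and 70.8 CPM, and it was nearly absent from *meox1*-high members (0.773 and 1.06 CPM).

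Among signalling genes, several of the Bmp and Notch pathways were lower in mutant *meox1*-high members. Of all genes tested, 10% were called higher and 7.94% lower in *meox1*-high members, and 4.6% and 6.23% over all members. *id3*, an inhibitory helix-loop-helix gene induced by Bmp, stood at 68.0 CPM in mutant and 157 CPM in wild-type *meox1*-high members (-1.21, -1.61 to -0.82), *id2a* at 57.2 and 83.9 CPM (-0.55), and *nog1*, a Bmp antagonist, at 50.3 and 124 CPM (-1.31, -1.77 to -0.86). These 3 of the 6 Bmp pathway genes tested were called lower and none higher, and the same 3 of 8 were lower over all members. *id3* was also lower in the other barcodes (-1.04). Of 17 segmentation clock genes tested in *meox1*-high members, 6 were lower (*her12*, *her15.2*, *her2*, *her4.1*, *her6* and *her9*) and *dld*, a Notch ligand gene, was higher. *her12*, *her15.2*, *her6* and *her9* were also called lower in *meox1*-low members and in the other barcodes. In the other barcodes 5 of 20 clock genes tested were lower, beside 150 of all 2940 genes tested there. *her12* stood at 220 and 773 CPM (-1.82, -2.02 to -1.62), in 39 of 94 mutant and 40 of 62 wild-type barcodes, and had -0.78 in the others. The *her15* and *her4* copies are nearly identical, so their separate values are uncertain. Without the top barcode of each library, *her15.1* had 1.03 and *her15.2* -1.18 in *meox1*-high members. None of the Fgf pathway genes was called, 12 in *meox1*-high and 14 over all members. Of 5 Wnt target genes tested in *meox1*-high members 1 was higher and none lower, of 5 Hedgehog genes *boc*, a co-receptor, was higher at 133 and 75.4 CPM, and of 17 hox genes 1 was lower. Over all members *gli3*, a Hedgehog effector, was higher at 123 and 59.8 CPM, but in *meox1*-high members it stood at 40.98 and 49.9 CPM.

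Matrix and adhesion genes moved in both directions. Over all members 2 of 27 tested were higher and 4 lower, with a median log2 ratio of -0.17. Of all genes tested over all members, 4.6% were called higher and 6.23% lower. In *meox1*-high members 6 of 21 tested were higher and 2 lower, with a median of 0.30. Of all genes tested there, 10% were called higher and 7.94% lower. *col4a2*, a basement membrane collagen, stood at 117 CPM in mutant and 54.2 CPM in wild-type members (1.11, 0.64 to 1.60), *cdh2*, N-cadherin, at 544 and 329 CPM (0.73, 0.53 to 0.92), and *cdh11* at 50.3 and 13.8 CPM (1.86, 0.99 to 2.85). *fn1b*, a fibronectin of the somite boundary matrix, was lower at 640 and 925 CPM (-0.53, -0.67 to -0.39). Without the top barcode of each library its ratio was -0.49, short of a call. At least 1 *fn1b* UMI was found in 91.5% of mutant and 77.4% of wild-type *meox1*-high members. *col4a2* (1.36) and *fn1b* (-0.81) had the same direction in the other barcodes, where *cdh11* had 0.36. Of 26 matrix and adhesion genes tested in the other barcodes, 3 were higher and 2 lower, beside 114 and 150 of all 2940 genes tested there.

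Of 26 mitosis genes tested in *meox1*-high members, 8 were lower in the mutant, 18 were not called and none was higher, beside 7.94% called lower of all genes tested. Among the 8 were *aurkb*, the kinase Aurora B, at 60.3 CPM in mutant and 127 CPM in wild-type members (-1.08, -1.51 to -0.66), and *kif23*, a kinesin of cytokinesis, at 30.2 and 64.8 CPM (-1.10, -1.72 to -0.50). The median of the 26 was -0.28. Over all members none of 31 was called in either direction, with a median of -0.05, and the difference between these nested sets was not tested. DNA replication genes gave 2 higher and 2 lower of 25 in *meox1*-high members, beside 10% and 7.94% of all genes tested. Among cohesin genes *stag1b*, a paralogue of *stag2b*, was called higher over all members, at 64.3 CPM in mutant and 39.1 CPM in wild-type members (0.72, 0.48 to 0.95).

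Stress genes were lower in mutant members. Of 18 immediate early and heat shock genes tested over all members, 10 were lower and 1, *hsp90aa1.1*, was higher. Of all genes tested over all members, 6.23% were called lower and 4.6% higher. *fosab* stood at 362 CPM in mutant and 765 CPM in wild-type members, *atf3* at 28.2 and 127 CPM and *hsp70.3* at 28.5 and 86.8 CPM. The other barcodes had 8 lower and none higher of 18, beside 150 lower and 114 higher of all 2940 genes tested there. Such genes respond to dissociation, and their part in the other differences was not tested. None of 80 ribosomal protein genes tested was called in members.

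Marker genes of other lineages also differed between mutant and wild-type members. Endothelial genes summed to 895 CPM in mutant and 1421 CPM in wild-type members, with *etv2*, *tal1*, *lmo2* and *sox7* lower among 5 tested. The epidermal list summed to 985 and 1530 CPM, with 5 of 7 lower. The notochord list summed to 551 and 840 CPM, with *noto* and *foxa2* lower among 5 tested. Of all genes tested over all members, 6.23% were called lower. In the other barcodes these lists were lower in the mutant as well. There the endothelial list stood at 306 and 391 CPM, the epidermal list at 1962 and 2893 CPM and the notochord list at 400 and 516 CPM. *etv2*, *noto* and 6 of 11 epidermal genes were called lower there, beside 150 of all 2940 genes tested. In *meox1*-high members the endothelial list stood at 24.0 and 26.5 CPM, with 12 of 16 genes at 0 UMIs in the mutant and 8 of 16 in wild type, and *sox7* at 0 in the mutant. The neural list stood there at 148 and 193 CPM, with 1 and 3 of 15 genes at 0, and the notochord list at 95.9 and 61.6 CPM, with 6 and 9 of 16 at 0. The epidermal list there stood at 225 and 946 CPM and the neuronal list at 202 and 7.43 CPM, each carried mostly by 1 barcode. Without the epidermal barcodes, 136 genes were higher and 172 lower over all members.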

How the data were processed

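Per the labels and the methods, single cells of pooled tailbuds were captured in droplets, 1 library per genotype. The authors counted UMIs with Cell Ranger 7.1.0 on GRCz11 with a curated transcriptome, intronic reads included, and deposited raw counts per gene (27771 genes) for barcodes called as cells, with no doublets removed. Genes of the same symbol were summed (27119 symbols).

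Members were chosen by the rule given in the report. The members, the gene lists and the lists of other cell types were chosen with earlier results of these data known, and the division at 20 UMIs was added later. UMIs were summed per library and set, divided by all UMIs of the set (CPM) and given exact Poisson intervals; shares were given exact Clopper-Pearson intervals and log2 ratios of CPM exact conditional binomial intervals, all at 95% and for counting error only. Mitochondrial genes were left out of the ratios, and a sum of 0 was replaced by 3 UMIs for calls. With 1 library per genotype no test was run. Genes named are those of the fixed lists, the 10 largest and 10 smallest ratios and differences from the other barcodes, and the 20 genes highest in members. The leading genes of *meox1*-high members were added after their values were seen.

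Shares of barcodes with a UMI are given with barcodes thinned to 5000 UMIs and without thinning. Principal components were computed on log counts per library. Alternatives for the rule, the depth, doublets (Scrublet in scanpy 1.11.5), scaling (TMM in edgeR 4.0.16) and the CPM minimum were tried. The ratio step was tested on simulated data. Python 3.11.15, numpy 2.4.6 and scipy 1.17.1 were used. The files hold no cell annotation, and sequences were not used here.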

Additional observations from a re-analysis of the deposited data

Results flagged for a closer look

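Genes of neurons had opposite ratios in *meox1*-high members and in all other barcodes, and the difference between the 2 sets was not tested. The log2 ratio of mutant over wild type was 5.61 in *meox1*-high members and -0.60 in the other barcodes for *crabp1b*, 1.23 and -0.53 for *tuba1a*, and at least 4.75, with wild type at 0 UMIs and set to 3, and -0.56 for *vim*. A single mutant barcode of 36008 UMIs, with 33 *meox1* and *tcf15* UMIs and no doublet call, held 132 of the 134 *crabp1b* UMIs, 111 of 111 *vim* UMIs and 62 of 135 *tuba1a* UMIs of the mutant members concerned, and 133 of 135 UMIs of the neuronal gene *elavl3*. In wild type a single epidermal barcode of 12399 UMIs held 204 of 269 *krt4* UMIs and 152 of 167 *cyt1l* UMIs.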

How the results depend on the processing

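Under the other rules the share of members was 2.53% in the mutant and 3.32% in wild type with at least 3 *meox1* and *tcf15* UMIs. It was 0.896% and 1.05% with at least 6, and 0.984% and 0.883% with at least 1 UMI of each gene. With 0 muscle UMIs it was 1.28% and 1.65%. On thinned counts, with a minimum below 4 for the summed pair, it was 4.0% and 3.72%. With at least 20 UMIs, a rule chosen after seeing the data, it was 0.393% and 0.362%. Counts of genes over members moved beyond 1.5-fold at a minimum of 10 CPM (691 higher and 869 lower), at 100 CPM (51 and 86) and for the higher calls with at least 20 UMIs (275). Of the 9 somite markers, 3 in place of 5 were higher in members with 0 muscle UMIs. Shared leading genes of the first component fell to 5 with at least 8000 UMIs, 7 with both genes, 7 on thinned counts and 0 with at least 20 UMIs. The other 64 values of these results moved less.

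Over all members, ratios changed sign for *olig4* (0.10 with at least 6 UMIs), for *cyt1l* (0.049), *epcam* (0.62) and *unc45b* (0.042) with both genes required, for *foxa2* (1.13), *gli3* (-0.28), *lmo2* (1.31), *noto* (1.74), *sox7* (0.13, with the mutant at 0 UMIs and set to 3), *tal1* (0.13) and *unc45b* (0.049) with at least 20 UMIs, and for *cyt1l* (1.06) without epidermal barcodes. In *meox1*-high members they changed sign for *cyt1l* (0.35) and *krt5* (1.82) with at least 30 UMIs, for *cyt1l* (0.42) and *krt5* (0.93) without epidermal barcodes, and for *crabp1b* (-1.04), *elavl3* (-1.04), *krt5* (0.98) and *vim* (-0.46) without the top barcode. Of 150 gene ratios followed over all members or in *meox1*-high members, 15 changed sign in this way. Under at least 1 alternative, 91 of the 150 went past their counting interval or changed sign. The cause of these changes was not tested. No paired analysis was possible because each genotype had 1 library. Among *meox1*-high members, genes near 50 CPM rest on few UMIs, which limits their ratios.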
